A study of Mus musculus with 6 samples.

Results

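The genes of glycolysis, the pentose phosphate pathway and the tricarboxylic acid (TCA) cycle, 40 by symbol, were followed in germinal center (GC) B cells that lacked HVEM and in their WT competitors. Of the 40 symbols, 39 were rows among the 23337 genes of the deposited table, and 35 of these had enough reads to test among 9653 genes. Pkm was not a symbol of the table, and Pfkm, Eno1, Ldhb and Slc16a3 had too few reads. The genes were taken by name, not by how they behaved in these samples.

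Hvem-/- GC B cells were measured in 3 samples (replicates 2, 4 and 6) from a C57BL/6 donor line marked CD45.2, and they were compared with 3 samples of WT GC B cells (replicates 1, 3 and 5) from a C57BL/6 donor line that the labels mark as CD45.1/2. A figure legend of the study gives the WT cells of its RNA sequencing as CD45.1 instead. Both donor lines had been mixed in bone marrow (BM) chimeras that reconstituted for 8 weeks, received the haptenated protein NP-CGG in alum and were taken at day 11. From each sample 50000 cells that were B220+, IgD low, CD38 low, GL7+ and Fas+ were sorted, and their RNA was amplified before sequencing. Genotype and donor line coincided in every sample, so loss of HVEM cannot be told apart from other differences between the lines. The study describes both genotypes as coming from shared chimeras, but no source used here says which libraries came from the same animal or that the samples of a genotype came from separate animals. The fits are therefore unpaired, and p-values describe only the spread among these 6 libraries, which may be technical.

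Glucose enters cells through facilitative transporters, is phosphorylated by hexokinase and is split and oxidized to pyruvate by glycolysis. Pyruvate is either reduced to lactate and exported or taken into mitochondria, where pyruvate dehydrogenase turns it into acetyl-CoA for the TCA cycle. The pentose phosphate pathway branches off at glucose 6-phosphate and yields NADPH and the ribose of nucleotides. GC B cells divide fast, and they are known to oxidize fatty acids as well as glucose.

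The libraries held 2505918 to 3321048 reads in genes in Hvem-/- samples and 2557741 to 3636163 in WT samples. Tnfrsf14, the gene that encodes HVEM, had 0, 0 and 4 reads in Hvem-/- replicates 2, 4 and 6, against 13, 11 and 17 reads in WT replicates 1, 3 and 5. The GC B cell marker Bcl6 was abundant in both genotypes, at 277 ± 2.32 RPKM (reads per kilobase of transcript, scaled to library size) in Hvem-/- cells and 277 ± 13.6 RPKM in WT cells (SD, n = 3 each). Across all 9653 genes, edgeR's quasi-likelihood test called 18 genes higher in Hvem-/- cells (0.186%) and 3 lower (0.0311%) at an adjusted p under 0.01. Mki67, a marker of cycling cells, was the germinal center marker among those that rose, with a log2 fold change of 0.92 (edgeR adjusted p = 0.00033). At an unadjusted p under 0.05, 649 genes were higher (6.72%) and 504 lower (5.22%).

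In the same comparison none of the 35 tested genes of glucose and pyruvate metabolism was called in either direction by edgeR, DESeq2 or limma. Without adjustment, edgeR's p was under 0.05 and the value higher in Hvem-/- cells for 1 of the 35 (2.86%, against 6.72% of all genes), and lower for 3 (8.57%, against 5.22% of all genes). The gene that was higher was Slc16a1, a lactate transporter, and those that were lower were Pgd of the pentose phosphate pathway and Fh1 and Mdh2 of the TCA cycle. Libraries were simulated at the same depth, with the spread set by edgeR's trend with level and without shifts tied to GC content. With 50 genes changed at each size, edgeR called 16% of 1.5-fold, 56% of 2-fold and 76% of 3-fold changes. The changed genes were not chosen at the levels of the 35, so these rates are not those of the 35. No gene of the 35 differed by as much as 2-fold between genotypes.

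Fold changes of 24 of the 35 genes were below 0 (68.6%, against 50.8% of all tested genes), and their median log2 fold change was -0.12, against -0.0058 over all tested genes. The values ran between -0.66 for Pgls and 0.45 for Slc16a1. No gene of the 35 had all Hvem-/- samples above all WT samples, an arrangement found in 8.74% of all tested genes. In 5 of the 35 (14.3%), Pdhb, Pgd, Cs, Fh1 and Mdh2, all Hvem-/- samples were below all WT samples, against 8.09% of all tested genes. In bulk samples of this kind, fewer cells that express a gene and less RNA per cell cannot be told apart.

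**Figure D1:**
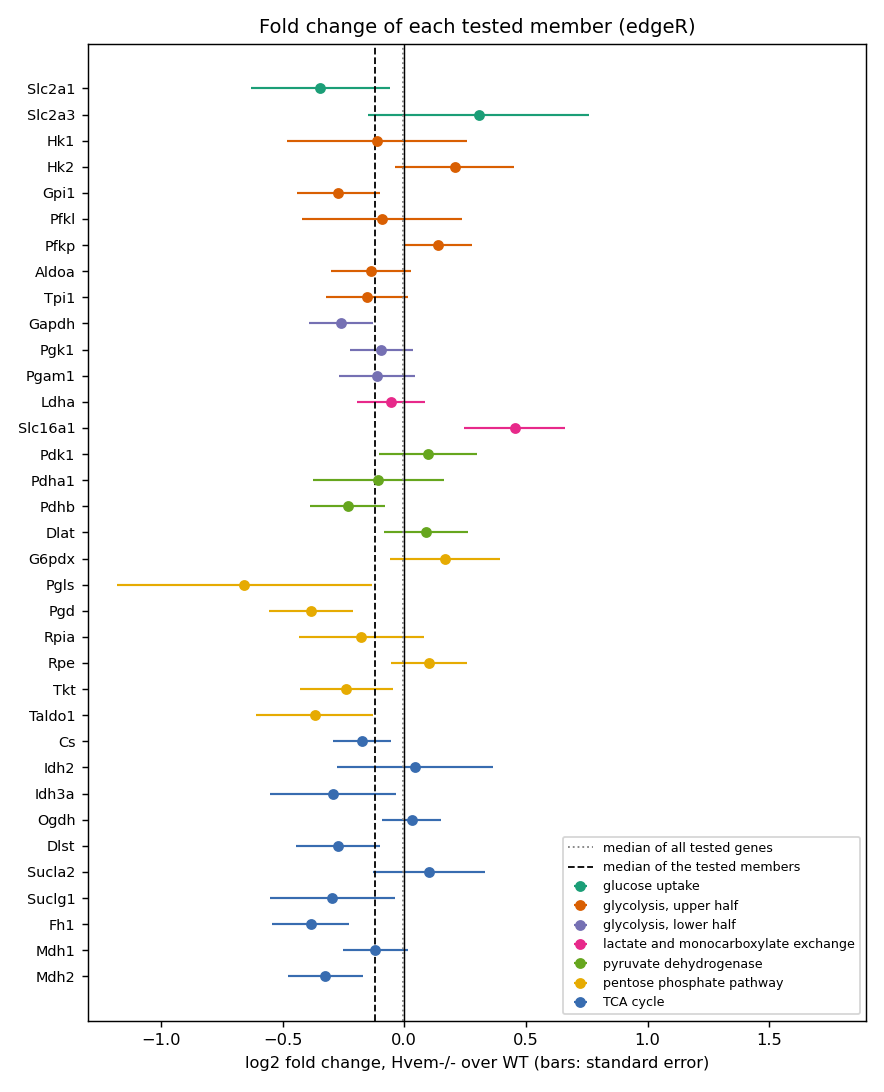
Log2 fold change of Hvem-/- over WT GC B cells for each of the 35 tested genes (points, edgeR) with its standard error (bars), coloured by pathway step. The dashed line is the median of these genes, -0.12, and the dotted line that of all tested genes, -0.0058. Most glycolytic, TCA cycle and pentose phosphate genes lie left of 0.

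The direction of the glycolytic median depended on 1 library. Hvem-/- replicate 6 had the lowest value of the 6 samples in 16 of the 35 genes (45.7%, against 25.1% of all tested genes), and in 9 of the 11 tested glycolytic enzymes from hexokinase to lactate dehydrogenase. Without that replicate the median of the 35 genes was -0.053, with 21 below 0, and the median of the 11 glycolytic enzymes was 0.019 in place of -0.11. Leaving out any other sample gave a glycolytic median of -0.20 to -0.052. The median of the TCA cycle genes, -0.22, was -0.17 without Hvem-/- replicate 6, -0.15 without WT replicate 5 and -0.13 without WT replicate 3, and it stayed below 0 whichever sample was left out.

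**Figure D2:**
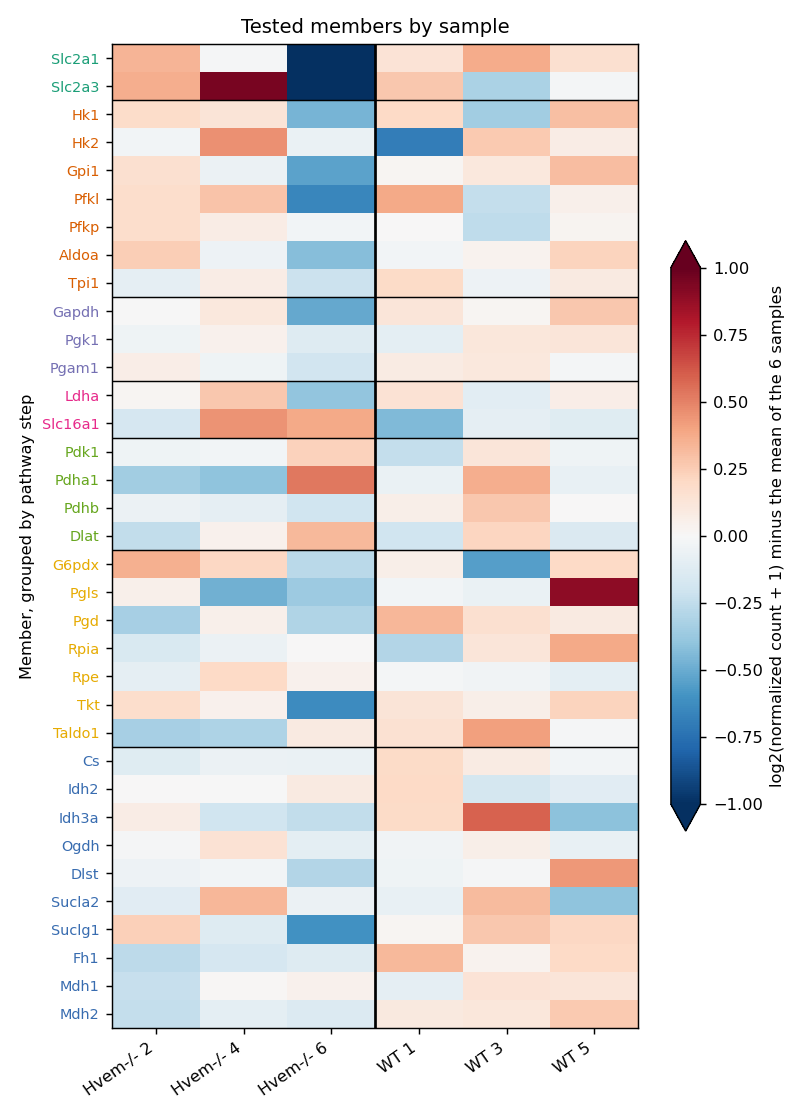
Heat map of the 35 tested genes (rows, grouped by pathway step) in the 3 Hvem-/- samples (left) and 3 WT samples (right). Colour gives log2(normalized count + 1) minus the mean of the 6 samples, so that a value of 1 is a doubling relative to that mean, and the blue column of Hvem-/- replicate 6 over glucose uptake and glycolysis stands out.

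Levels per transcript length spanned more than the genotypes differed by. Gapdh was the highest of the 39 genes, at 907 ± 194 RPKM in Hvem-/- cells and 1086 ± 100.03 RPKM in WT cells, and it stood above 99.8% of all tested genes. Ldha came next, with 373 ± 84.5 RPKM in Hvem-/- cells and 388 ± 36.0 RPKM in WT cells. Pgk1, Cs, Mdh1 and Aldoa followed, with means over the 6 samples between 79.6 and 95.4 RPKM, and these neighbours overlapped in their spread. Slc2a1 and Hk2, which bring glucose in and trap it, lay with Pdk1 and Idh2 between 7.15 and 8.19 RPKM, below the median of all tested genes.

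**Figure D3:**
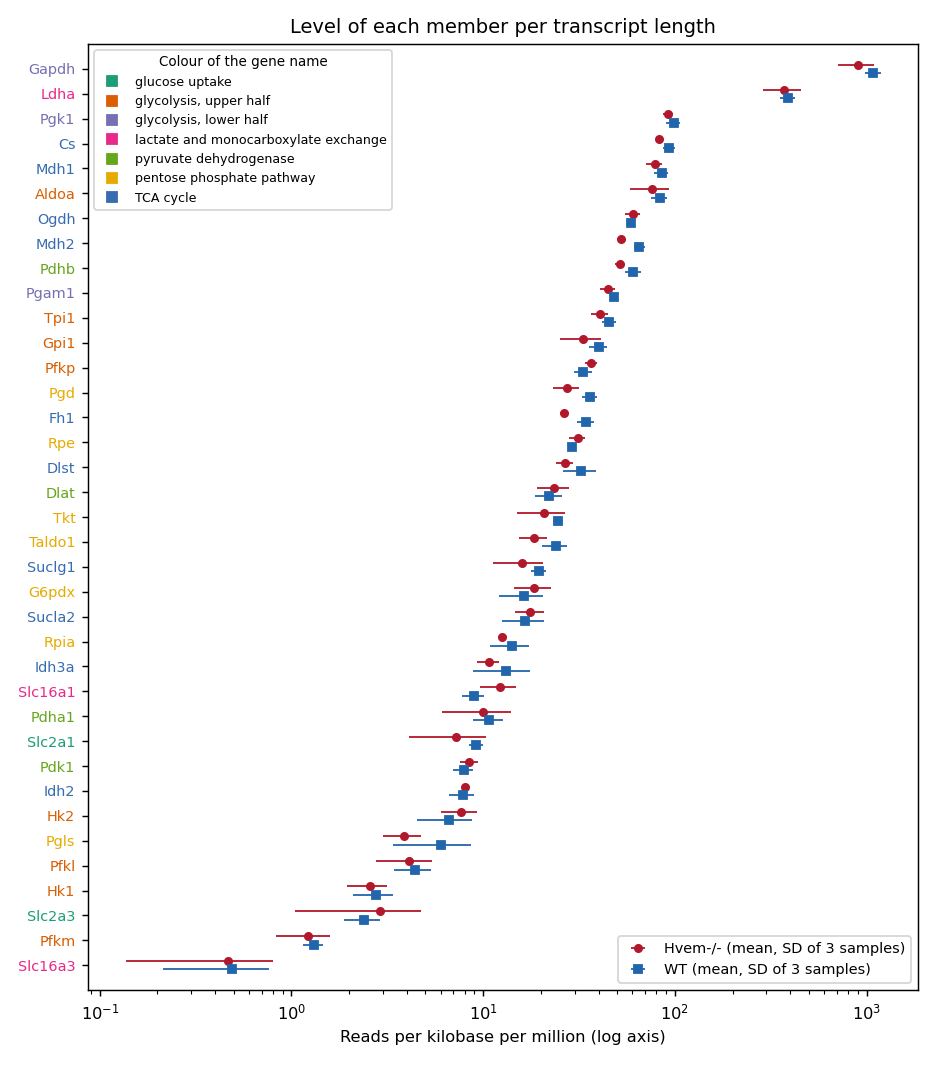
Level of each gene in RPKM (log axis), as mean and SD of 3 Hvem-/- samples (circles) and 3 WT samples (squares), ordered by the mean of all 6 samples. Gapdh and Ldha stand apart at the top, the genotypes overlap in most rows, and Eno1 and Ldhb, with 0 and 10 reads in all, are not drawn.

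The motif ACGTG, the core of hypoxia response elements bound by HIF, and the E-box CACGTG, which contains that core and is bound by MYC and related factors, were searched on both strands of RefSeq promoter windows (GRCm38.p6) that run from 250 bases before to 50 after a gene's start. Of the 37 genes with a window, 15 held ACGTG (40.5%), against 30.1% of the tested genes and 21.8% of all genes with a window. CACGTG was found in 4 of the 37 (10.8%), against 12.1% of the tested genes. The 130 bases just before a start are shown for the glycolytic genes Hk2, Aldoa, Pgam1 and Ldha, since these held a match outside any annotated exon, with ACGTG, its reverse complement CACGT or CACGTG in capitals and each read 5′ to 3′ on the gene's own strand.
Hk2 (chr6:82774455-82774584, minus strand): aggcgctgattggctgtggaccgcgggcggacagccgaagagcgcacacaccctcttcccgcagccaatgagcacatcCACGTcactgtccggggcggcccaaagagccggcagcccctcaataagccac
Aldoa (chr7:126799255-126799384, minus strand): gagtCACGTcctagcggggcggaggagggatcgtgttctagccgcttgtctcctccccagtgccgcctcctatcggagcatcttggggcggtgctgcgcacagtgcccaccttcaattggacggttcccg
Pgam1 (chr19:41911741-41911870, plus strand): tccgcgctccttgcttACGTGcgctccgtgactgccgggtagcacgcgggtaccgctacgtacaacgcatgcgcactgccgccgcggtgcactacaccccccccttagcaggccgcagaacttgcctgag
Ldha (chr7:46845674-46845803, plus strand): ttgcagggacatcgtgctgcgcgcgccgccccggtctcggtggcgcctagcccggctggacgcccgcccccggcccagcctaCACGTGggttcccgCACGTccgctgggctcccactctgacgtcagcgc
Ldha carried the E-box and a further core close behind it, while Hk2, Aldoa and Pgam1 carried a single core, within the bases shown. Further upstream in the searched windows, Ldha held another E-box and Hk2 another core. A match of these letters is a description of the sequence and not a measured binding site. None of these genes was called: their log2 fold changes were 0.21 for Hk2, -0.14 for Aldoa, -0.11 for Pgam1 and -0.054 for Ldha.

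Of the glucose transporters, Slc2a1 encodes GLUT1 and Slc2a3 encodes GLUT3. Slc2a1 had 91.3, 71.5 and 35.5 normalized counts (reads divided by the sample's size factor) in Hvem-/- replicates 2, 4 and 6, against 79.1, 93.2 and 80.7 in WT replicates 1, 3 and 5. Slc2a3 had 34.5, 52.1 and 10.6 in the Hvem-/- samples, against 32.2, 21.1 and 26.1 in the WT samples. For both, replicate 6 was the lowest of the 6 samples while replicate 2 lay within the WT range or above it, and replicate 4 was below that range for Slc2a1 and above it for Slc2a3. The log2 fold changes were -0.35 (SE 0.287, edgeR adjusted p = 0.681) for Slc2a1 and 0.31 (SE 0.455, adjusted p = 0.839) for Slc2a3. Per kilobase, Slc2a1 made up 73.0% ± 9.28 of the signal of this pair in Hvem-/- cells and 79.4% ± 4.72 in WT cells (SD, n = 3 each). It was thus the larger of the pair in both genotypes. Slc2a6, outside the pair, stood near Slc2a3, at 2.76 RPKM in Hvem-/- cells and 3.62 RPKM in WT cells, against 2.90 and 2.38 RPKM for Slc2a3.

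Hexokinase traps glucose in the cell, and Hk2 and Hk1 encode its mitochondria-bound forms. Hk2 had 105.8, 148 and 103 normalized counts in Hvem-/- samples, against 66.4, 130 and 114 in WT samples. Hk1 had 35.6, 34.4 and 22.5 in Hvem-/- samples, against 36.1, 24.4 and 38.8 in WT samples. The genotypes overlapped for both, with log2 fold changes of 0.21 (SE 0.245, edgeR adjusted p = 0.791) for Hk2 and -0.11 (SE 0.371, adjusted p = 0.937) for Hk1. Hk2 gave 74.9% ± 4.52 of the hexokinase signal per kilobase in Hvem-/- cells and 69.6% ± 10.9 in WT cells.

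Phosphofructokinase commits sugar to glycolysis, and it is made from platelet, liver and muscle type subunits, encoded by Pfkp, Pfkl and Pfkm. Pfkp had 460, 428 and 398 normalized counts in Hvem-/- samples, against 408, 341 and 414 in WT samples, with a log2 fold change of 0.14 (SE 0.139, edgeR adjusted p = 0.743). Pfkl had 49.0, 53.0 and 27.2 in Hvem-/- samples, against 56.6, 36.6 and 44.8 in WT samples, with a log2 fold change of -0.093 (SE 0.330, adjusted p = 0.943). The liver type thus sat at a level far below the platelet type, and its lowest sample was again replicate 6. Pfkm had 12, 9 and 7 reads in Hvem-/- samples, against 10, 9 and 16 reads in WT samples, too few to test. Pfkp gave 87.5% ± 2.54 of the set per kilobase in Hvem-/- cells and 85.4% ± 1.12 in WT cells.

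The remaining enzymes of upper glycolysis are glucose 6-phosphate isomerase (Gpi1), aldolase A (Aldoa) and triosephosphate isomerase (Tpi1). Gpi1 had 327.5, 281 and 201 normalized counts in Hvem-/- samples, against 297, 315 and 361 in WT samples, with a log2 fold change of -0.27 (SE 0.172, edgeR adjusted p = 0.566). Aldoa had 406.5, 332 and 255 in Hvem-/- samples, against 337, 352 and 400.3 in WT samples, with a log2 fold change of -0.14 (SE 0.163, adjusted p = 0.793). In both genes replicate 2 lay inside the WT range or above it, replicate 4 a little below it and replicate 6 well below it. Tpi1 had a log2 fold change of -0.15. In all, 5 of the 7 tested genes of upper glycolysis were below 0, with a median of -0.11, but without replicate 6 their median was 0.067 and 5 of the 7 were above 0.

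In lower glycolysis, where ATP and NADH are made, Gapdh encodes glyceraldehyde 3-phosphate dehydrogenase and lies at chr6:125161715-125166467 of GRCm38. It had 3917, 4218 and 2763 normalized counts in Hvem-/- samples, against 4284, 3985 and 4738 in WT samples. Replicate 6 was the lowest value, replicate 2 was slightly below the lowest WT sample, and replicate 4 exceeded that sample. The log2 fold change was -0.26 (SE 0.133, edgeR adjusted p = 0.458), and -0.093 without replicate 6. Pgk1, phosphoglycerate kinase, had 474.5, 504 and 447 normalized counts in Hvem-/- samples, against 458, 528 and 531 in WT samples, with a log2 fold change of -0.094 (SE 0.130, adjusted p = 0.824). Pgam1, phosphoglycerate mutase, had a log2 fold change of -0.11, so the 3 tested genes of this step were all slightly below 0 and all overlapped between genotypes. All 3 had their lowest value in replicate 6.

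Some transcripts of these steps are nearly identical to those of other genes, which makes their counts uncertain. At 98% identity over at least 100 bases, other annotated genes, many of them pseudogenes, covered 88.0% of the Gapdh transcript, 76.8% of Ldhb, 68.8% of Pgk1, 43.1% of Pgam1 and 36.3% of Gpi1. Eno1, the main enolase gene, had 0 reads in all 6 samples. Its near-identical copy Eno1b, listed under the older symbol Gm5506, covered 85.6% of the Eno1 transcript and had 2, 1 and 1 reads in Hvem-/- samples, against 1, 0 and 0 in WT samples. Every cell that runs glycolysis needs enolase, so Eno1 is given here only as listed at 0 and no fold is drawn from it. The older symbol of Pkm, Pkm2, was a row of the table and encodes pyruvate kinase, the last step of glycolysis, though by its symbol it was not among the 39. It had 682, 589 and 426 normalized counts in Hvem-/- samples, against 699, 540.4 and 674 in WT samples, with a log2 fold change of -0.18 (SE 0.157, edgeR adjusted p = 0.696). By the same measure another annotated gene covered 65.5% of the Pkm2 transcript, so its counts share this uncertainty.

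Lactate dehydrogenase A, encoded by Ldha, reduces pyruvate to lactate. It had 1947, 2324 and 1465 normalized counts in Hvem-/- samples, against 2132, 1785 and 2019 in WT samples, with a log2 fold change of -0.054 (SE 0.139, edgeR adjusted p = 0.914). The Hvem-/- samples held both the highest and the lowest value. Ldhb, which encodes the other subunit, had 0 reads in each Hvem-/- sample, a count that allows up to 3 reads, against 3, 0 and 7 reads in WT samples, so Ldha gave 100% of the set per kilobase in Hvem-/- cells and 99.8% ± 0.18 in WT cells.

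The monocarboxylate transporters MCT1, encoded by Slc16a1, and MCT4, encoded by Slc16a3, carry lactate across the plasma membrane. Slc16a1 (chr3:104638668-104658462) had 114.7, 177 and 168 normalized counts in Hvem-/- samples, against 94.7, 121 and 119 in WT samples. Replicates 4 and 6 were above all WT samples and replicate 2 was among them. The log2 fold change was 0.45 (SE 0.209, edgeR adjusted p = 0.395), the highest value of the 35 genes, and it ran between 0.33 and 0.62 over the alternatives tried. Slc16a3 had 8, 8 and 1 reads in Hvem-/- samples, against 7, 8 and 3 reads in WT samples, and Slc16a1 gave 96.0% ± 3.32 of the pair per kilobase in Hvem-/- cells and 94.8% ± 2.90 in WT cells.

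**Figure D4:**
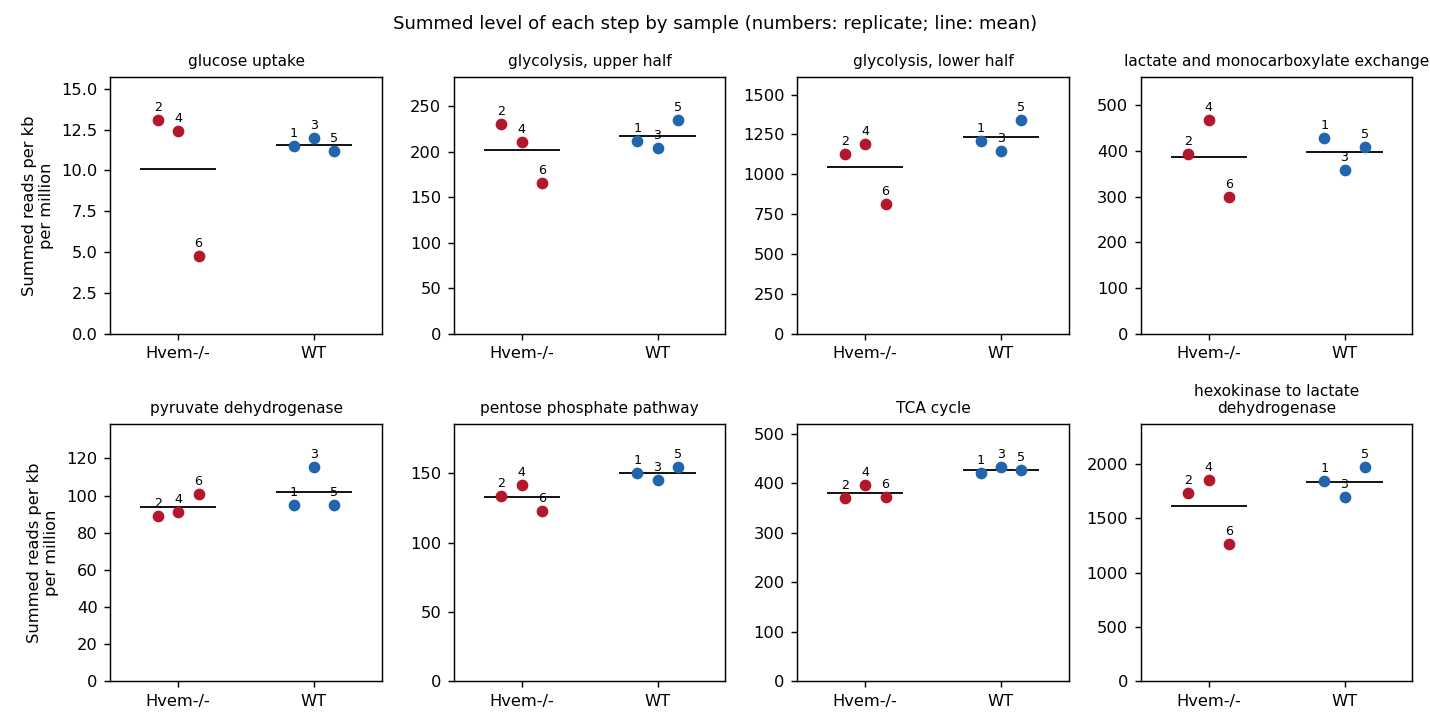
Summed RPKM of the genes of each pathway step in each Hvem-/- sample (left in each panel) and WT sample (right), with the replicate number beside each point and the mean as a line. The TCA cycle and pentose phosphate sums do not overlap between genotypes, whereas in glucose uptake and glycolysis Hvem-/- replicate 6 lies furthest below the WT samples. In lower glycolysis Hvem-/- replicate 2 (1125) also lies just below the lowest WT sample (1144 in replicate 3). The pentose phosphate groups lie close (142 in Hvem-/- replicate 4, 145 in WT replicate 3), with replicate 6 again lowest. No sum is corrected for GC content.

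Summed over the enzymes from hexokinase to lactate dehydrogenase, the level was 1737, 1856 and 1263 RPKM in Hvem-/- replicates 2, 4 and 6, against 1843, 1697 and 1975 RPKM in WT replicates 1, 3 and 5. Replicates 2 and 4 lay within the range of WT, and replicate 6 below it. Gapdh and Ldha made up most of this sum.

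Pyruvate dehydrogenase is built from E1 subunits (Pdha1, Pdhb) and the E2 subunit (Dlat), and it is switched off by the kinase PDK1 (Pdk1). Pdhb had 229, 224 and 208 normalized counts in Hvem-/- samples, against 249, 288.5 and 239.7 in WT samples. The groups did not overlap, but the log2 fold change was -0.23 (SE 0.156, edgeR adjusted p = 0.592). Pdha1, Dlat and Pdk1 overlapped between genotypes, with log2 fold changes of -0.11, 0.089 and 0.097, and each of these was highest in Hvem-/- replicate 6. The level summed over the 4 genes was 89.2, 91.2 and 100.7 RPKM in Hvem-/- samples, against 94.8, 115 and 94.8 RPKM in WT samples.

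In the pentose phosphate pathway, G6pdx, Pgls and Pgd encode the oxidative enzymes that make NADPH, and Rpia, Rpe, Tkt and Taldo1 encode those that interconvert sugars. Pgd, 6-phosphogluconate dehydrogenase (chr4:149149991-149166771), had 155, 203 and 158 normalized counts in Hvem-/- samples, against 247, 219 and 208 in WT samples. All Hvem-/- samples were below all WT samples, the nearest pair being replicate 4 and WT replicate 5. The log2 fold change was -0.38 (SE 0.172, edgeR adjusted p = 0.378). G6pdx, the enzyme before it, had a log2 fold change of 0.17, and Pgls, the lactonase between them, one of -0.66 (SE 0.524) on only 9 to 36 reads per sample. The sugar interconverting enzymes had log2 fold changes of -0.37 for Taldo1, -0.24 for Tkt, -0.18 for Rpia and 0.10 for Rpe. In all, 5 of the 7 genes were below 0, with a median of -0.24. Their summed level was 134, 142 and 123 RPKM in Hvem-/- samples, against 150.1, 145 and 155 RPKM in WT samples, without overlap. These sums were not corrected for the GC content of transcripts.

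In the TCA cycle, citrate synthase (Cs) joins acetyl-CoA to oxaloacetate, isocitrate and 2-oxoglutarate are oxidized (Idh2, Idh3a, Ogdh, Dlst), succinyl-CoA is cleaved (Sucla2, Suclg1), and fumarase (Fh1) and mitochondrial malate dehydrogenase (Mdh2) close the cycle. Fh1 (chr1:175600374-175625635) had 186, 199.6 and 205 normalized counts in Hvem-/- samples, against 280.2, 230 and 257 in WT samples. The Hvem-/- samples lay close together, at 197 ± 9.59 against 256 ± 25.3 in WT (SD, n = 3 each), and none reached the lowest WT sample. The log2 fold change was -0.38 (SE 0.159, edgeR adjusted p = 0.330), the smallest adjusted p of the 35 genes.

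Mdh2 (chr5:135778480-135790398) had 203, 223 and 217.5 normalized counts in Hvem-/- samples, against 257, 259 and 287 in WT samples, and again the groups were apart. Its log2 fold change was -0.32 (SE 0.153, edgeR adjusted p = 0.409). Cs had 668, 695 and 692 normalized counts in Hvem-/- samples, against 827, 768 and 713 in WT samples, which did not overlap either, with a log2 fold change of -0.17 (SE 0.119, adjusted p = 0.601). These 3 of the 10 TCA cycle genes had all Hvem-/- samples below all WT samples, against 8.09% of all tested genes. They were picked for not overlapping, so low values in all Hvem-/- samples follow from that choice. Over all 10 TCA cycle genes, Hvem-/- replicate 6 was the lowest sample in 3 and Hvem-/- replicate 2 in 4. Among the 11 tested glycolytic enzymes, replicate 6 was the lowest in 9. Mdh1, the cytosolic malate dehydrogenase of the malate-aspartate shuttle, had 415.5, 493 and 504 normalized counts in Hvem-/- samples, against 459, 537 and 532 in WT samples, with a log2 fold change of -0.12 (SE 0.134, adjusted p = 0.775).

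The other TCA cycle genes overlapped between genotypes, with log2 fold changes of -0.30 for Suclg1, -0.29 for Idh3a, -0.27 for Dlst, 0.030 for Ogdh, 0.044 for Idh2 and 0.10 for Sucla2. Of the 10 genes, 7 were below 0, with a median of -0.22. Their summed level was 371, 397 and 372 RPKM in Hvem-/- samples, against 421, 433 and 428 RPKM in WT samples, so every Hvem-/- sample was below every WT sample. The sum includes Cs, Fh1 and Mdh2, so in part it repeats their values. Their means were 82.9, 26.4 and 52.2 RPKM in Hvem-/- cells, against 93.5, 34.5 and 65.3 RPKM in WT cells. This sum over genes chosen with results known carries no test and no correction for GC content. With 3 samples a group, an exact permutation test could not go below p = 0.1 for any single value.

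Fold changes in these libraries moved with the GC content of the transcript. Over all tested genes with a known transcript, the median log2 fold change was 0.21 in the decile of lowest GC content and -0.27 in the decile of highest. In the highest decile, Hvem-/- replicate 6 deviated by -0.33 from the mean of the samples and WT replicate 1 by 0.25. The 35 genes had a median GC content of 51.9%, against 49.2% over 9534 tested genes, and their fold changes correlated with it at Pearson's r = -0.54 and Spearman's rho = -0.42 across genes, which share the same libraries and are not independent. When each library was corrected by loess for GC content and transcript length, the median of the 35 was -0.066, with 21 below 0, that of the 11 glycolytic enzymes was 0.026, that of the pentose phosphate genes -0.12 in place of -0.24, and that of the TCA cycle genes -0.16 in place of -0.22. Pgd then stood at -0.22, Mdh2 at -0.14, Gapdh at -0.066, Slc16a1 at 0.33 and Fh1 at -0.39. Fh1, at a GC content of 47.7%, was the gene of the 35 that kept an unadjusted p under 0.05 after the correction (edgeR adjusted p = 0.414).

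**Figure D5:**
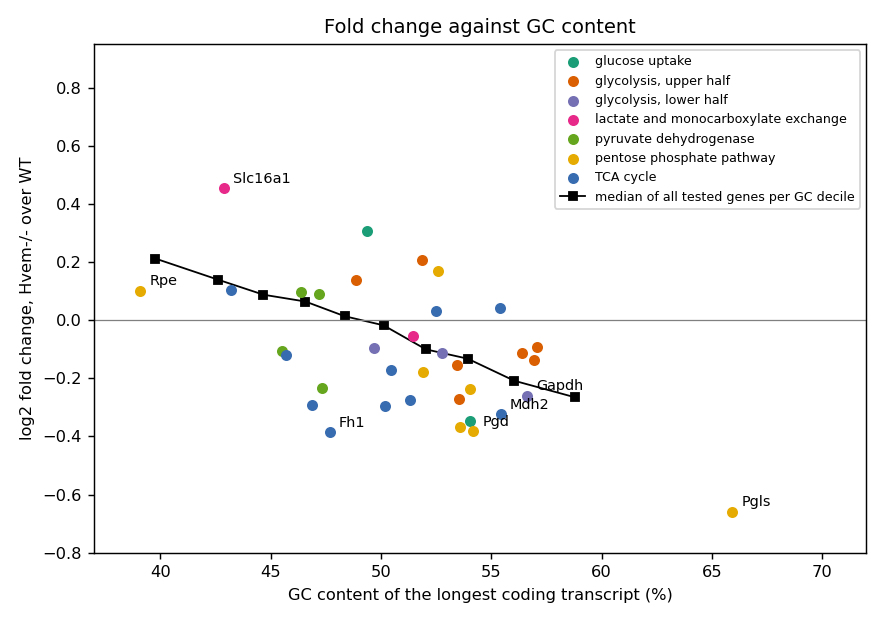
Log2 fold change of Hvem-/- over WT against the GC content of the longest coding transcript for the 35 genes (coloured points) and the median of all tested genes in each decile of GC content (black squares). The squares fall with GC content to -0.27, and Fh1 and Slc16a1 lie away from them on opposite sides.

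Markers of T cells, which contact B cells in the GC, were also lower in sum. Their summed level over 14 genes was 73.2, 55.2 and 46.5 RPKM in Hvem-/- samples, against 91.6, 85.4 and 75.3 RPKM in WT samples. Of the 10 markers tested, 0 were called and 3 had an unadjusted p under 0.05, all lower in Hvem-/- cells, with a median log2 fold change of -0.82, and Cd3e had 70, 77 and 43 reads in Hvem-/- samples, against 109, 114 and 163 in WT samples. None of these defining markers was at 0 in all samples. Their part in the lower TCA cycle and pentose phosphate values was not tested.

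Genes of the same pathways outside the 40 did not pass the test either. Among other glycolysis genes and regulators, 0 of 15 tested were called, with a median log2 fold change of -0.072. At an unadjusted p under 0.05, 2 were higher and 1 lower. Tigar, listed under an older name and known as a phosphatase that slows glycolysis, had 41.2, 62.7 and 62.7 normalized counts in Hvem-/- samples, against 30.3, 26.6 and 38.1 in WT samples, with a log2 fold change of 0.79 (SE 0.320, edgeR adjusted p = 0.317), and its groups did not overlap. Gpd1l, a glycerol 3-phosphate dehydrogenase-like enzyme, had 322, 357 and 336 in Hvem-/- samples, against 475.5, 514 and 356 in WT samples, with a log2 fold change of -0.41 (SE 0.150, adjusted p = 0.270).

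Of other pyruvate handling genes 0 of 10 were called, with a median of -0.026. The smallest p values were those of Pdhx, the E3 binding protein of pyruvate dehydrogenase, at -0.38 (SE 0.261, edgeR adjusted p = 0.601) and the mitochondrial pyruvate carrier subunit Mpc2, listed as Brp44, at -0.31 (SE 0.304, adjusted p = 0.736). Of other pentose phosphate genes 0 of 6 were called, with a median of -0.080. Here the ribose phosphate pyrophosphokinases Prps1, at 0.32 (SE 0.190, adjusted p = 0.535), and Prps2, at -0.26 (SE 0.154, adjusted p = 0.536), lay on opposite sides of 0. Of other TCA cycle and shuttle genes 0 of 23 were called, with a median of -0.071, and none of these 3 lists had a gene at an unadjusted p under 0.05. Idh3b, a subunit of the same isocitrate dehydrogenase as Idh3a, stood at -0.33 (SE 0.168, adjusted p = 0.444), and D2hgdh, which oxidizes D-2-hydroxyglutarate, at 0.53 (SE 0.286, adjusted p = 0.491).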

How the data were processed

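RNA-seq values of 3 Hvem-/- and 3 WT samples of GC B cells, grouped by the submitters' labels, were read from the table the authors deposited. The study's methods name STAR and DESeq2 with no versions, whereas the processing notes of the submitters give build mm10 and name Cufflinks 2.1.1, TopHat2 2.0.8b and CASAVA. The values the authors deposited per sample are a signal, read counts divided by a DESeq2 size factor. Columns of the authors' own comparison hold fold changes, errors and p-values and were not used. No other sample columns were present.

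In each sample 100% of values were whole multiples of the value of 1 read (relative tolerance 1e-06), so read counts were recovered and tested in R 4.3.3 by the quasi-likelihood test of edgeR 4.0.16 on genotype, after filterByExpr and TMM scaling, with Benjamini-Hochberg adjustment over 9653 genes and a threshold of 0.01. A standard error is the log2 fold change divided by the root of the F statistic. RPKM used TMM-scaled totals and the longest coding transcript of GENCODE vM21 (GRCm38). Symbols matched directly for 20929 genes and through a synonym for 1918. The deposited counts are not strand-specific as far as the sources used here state, and exons of other genes overlapped 20.6% of the exon bases of Pgls, 17.9% of Rpe, 16.1% of Pdha1, 13.6% of G6pdx and 11.5% of Gpi1. Totals of 2505918 to 3636163 reads set the precision, and a count of 0 allows up to 3 reads, for counting error only.

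Alternatives were DESeq2 1.42.0, upper-quartile factors, no filter, a filter of 50 reads in 3 samples, limma 3.58.1 on log2(value + 1) and log2(value + 8), a loess correction (span 0.5) for GC content and length, an adjusted p under 0.05, each sample left out, and shares not divided by length. The test was tried on simulated data with 200 of its genes changed. Values in full were given for genes with an unadjusted p under 0.05, the smallest p of each step, the 6 highest levels and every isozyme, and for up to 2 genes of each further list. Members, lists and tests were chosen with earlier results of these data known.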

Additional observations from a re-analysis of the deposited data

How the results depend on the processing

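No member was called under any alternative fit, at either threshold. At an unadjusted p under 0.05, the count of members higher was 0 under DESeq2, upper-quartile factors, the filter of 50 reads, limma with either pseudocount and the GC correction, and 0 to 1 with a sample left out, against 1. The count lower was 1 under DESeq2 and under the GC correction, and 0 to 3 with a sample left out, against 3. It was 2 under limma with either pseudocount, and 4 under upper-quartile factors and with no filter. Over all genes, 18 higher calls became 46 under DESeq2, 67 with no filter, 9 with the GC correction, 43 at an adjusted p under 0.05 and 1 to 27 with a sample left out, the 1 without WT replicate 1, and 3 lower calls became 6 under DESeq2, 17 with no filter and 6 at 0.05. The median of the TCA cycle genes, -0.22, was -0.29 with the filter of 50 reads, -0.16 with the GC correction and -0.24 to -0.13 with a sample left out. Idh2, at 0.044 in the main fit, did not pass the filter of 50 reads, so that median is not over the same genes. Of the refitted fold changes of the 18 tested members whose values are given in full, 219 kept their sign and 13 did not, none of them called. Under the GC correction these were Hk1 (0.097), Pfkl (0.13), Aldoa (0.065) and Ldha (0.026). Outside the 18, Rpe (-0.12), Sucla2 (-0.011) and Pgam1 (0.0014) also turned under that correction. With a sample left out the fold changes of the 18 that turned ran from -0.22 to 0.71 for Slc2a3, -0.28 to 0.067 for Hk1, -0.028 to 0.39 for Hk2, -0.27 to 0.15 for Pfkl, -0.31 to 0.019 for Aldoa and -0.21 to 0.11 for Ldha. Outside the 18, those of Pdha1, Dlat, G6pdx, Rpia, Ogdh, Idh2 and Sucla2 also turned with some sample left out. Pfkp's share in WT cells was 87.3% when not divided by length. No paired analysis was possible because the groups share no replicate number and no source used here says which libraries share a chimera. The cause of these shifts was not tested. The simulated libraries kept the depth of the real ones, so how far depth limits the calls was not tested.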

Other observations

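Other gene groups that bear on fuel use were measured in the same libraries. HIF, the oxygen-sensitive transcription factor that drives glycolytic genes, has further targets outside glycolysis: of 17 tested genes of that pathway 0 were called and 0 had an unadjusted p under 0.05 by edgeR, with a median log2 fold change of 0.064. The groups did not overlap for 3 of them, all higher in Hvem-/- cells, against 8.74% of all tested genes. Kdm3a, a histone demethylase, had 482, 488 and 440 normalized counts in Hvem-/- samples, against 409, 371 and 410 in WT samples, with a log2 fold change of 0.24 (SE 0.132, edgeR adjusted p = 0.4995). Bnip3l, a mitophagy receptor, had 313, 313 and 262 in Hvem-/- samples, against 246, 249 and 245 in WT samples, with a log2 fold change of 0.26 (SE 0.150, adjusted p = 0.525).

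Of 18 tested fatty acid oxidation genes, 0 were called and 0 had an unadjusted p under 0.05 by edgeR, with 9 above and 9 below 0. Cpt1a, the enzyme that commits fatty acids to mitochondrial oxidation, had 433, 572 and 453 normalized counts in Hvem-/- samples, against 623, 579 and 546 in WT samples, with a log2 fold change of -0.26 (SE 0.136, adjusted p = 0.462). Acadvl, a very long chain acyl-CoA dehydrogenase, had a log2 fold change of -0.44 (SE 0.269, adjusted p = 0.551).

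Markers of further cell types gave mixed values. Of 6 tested B cell markers, 0 were called and 3 had an unadjusted edgeR p under 0.05, all lower in Hvem-/- cells. Their median log2 fold change was -0.20, with 4 of the 6 below 0 and 2 above. Follicular B cell markers held 1 call among 5 tested, Fcer2a, which encodes CD23 and fell in Hvem-/- cells, with a log2 fold change of -1.01 (edgeR adjusted p = 0.007). Myeloid markers summed to 231, 78.2 and 105 RPKM in Hvem-/- samples, against 179, 95.9 and 149 RPKM in WT samples, and erythroid markers to 146, 78.6 and 33.5 RPKM in Hvem-/- samples, against 140.2, 61.01 and 61.6 RPKM in WT samples. Adgre1 entered the myeloid sums under both its current and its older symbol, Emr1, so it is counted more than once. Its mean was 0.90 RPKM in Hvem-/- cells and 0.38 RPKM in WT cells. Plasma cell markers summed to 79.7, 81.8 and 79.9 RPKM in Hvem-/- samples, against 75.5, 95.2 and 96.0 RPKM in WT samples.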
